A study of Mus musculus with 8 samples.

Results

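Hdac3 is a class I histone deacetylase that works as the enzymatic subunit of the NCoR and SMRT corepressor complexes, where it removes acetyl groups from histones near the genes these complexes bind. In the thymus, CD4+CD8+ cells rearrange the T cell receptor alpha locus, and those whose receptor binds self-peptide with moderate strength are positively selected. Receptor signalling during selection raises CD5 and the T cell receptor at the surface, shuts off recombination, and starts the survival, adhesion and lineage programmes of the mature T cell. The data here address whether loss of Hdac3 acted on the same genes, and in the same direction, before and after this signalling step.

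The subject is the difference of a difference. For each gene, the change without Hdac3 was taken as the log2 ratio of FPKM (fragments per kilobase of transcript and of library size) in Hdac3KO over WT, at each of the 2 stages. The stage difference is that change in DP2 minus that change in DP1, so a positive value means that the Hdac3KO to WT ratio was higher in DP2, and a negative value that it was lower. Of 23278 genes in the deposited tables, 11329 reached 1 FPKM in a group at both stages, and 10142 of these could be tested. The authors' software had left 1136 untested in at least one comparison, and 51 had a group listed at 0.

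RNA came from C57BL/6 mouse thymocytes sorted as GFP+ CD4+CD8+ cells at a first stage with low CD5 and low TCR beta (DP1) and a later stage with high CD5 and intermediate TCR beta (DP2). The WT groups carried Hdac3+/+ and the Hdac3KO groups Hdac3F/F with LCK-Cre, a Cre recombinase transgene driven by the T lineage Lck promoter, which is active before the CD4+CD8+ stage. The labels do not make clear whether the WT animals also carried LCK-Cre, nor which construct gave the GFP that all groups were sorted for. Sex and age are not given. Each of the 4 groups (WT and Hdac3KO at DP1, WT and Hdac3KO at DP2) had 2 libraries made from rRNA-depleted total RNA pools. The deposited tables give 1 FPKM per gene and group, with no value for single libraries and no read totals, so the depth is unknown and the error of every value below is a standard error (SE) recovered from the authors' deposited p-values. Nothing in the labels says that the libraries of a group came from separate animals, so these errors may reflect technical spread.

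The sorted cells carried the transcripts their labels call for. Cd4 stood at 359, 378, 208 and 392 FPKM in WT then Hdac3KO of DP1 and WT then Hdac3KO of DP2, and Cd8a at 692, 655, 469 and 641. The level of Cd5 rose 3.89-fold from DP1 to DP2 in WT and 3.83-fold in Hdac3KO by the authors' stage comparisons. Hdac3 itself stood at 38.1 FPKM in WT DP1, 11.7 in Hdac3KO DP1, 29.7 in WT DP2 and 15.4 in Hdac3KO DP2, so 30.7% of the WT level was left in DP1 and 51.9% in DP2. Its stage difference was 0.76 ± 0.51 (SE; adjusted p-value 0.42), and the fraction of transcript left was not shown to differ between stages. Summed FPKM over listed markers of gamma-delta and NK cells, B cells, myeloid cells, erythroid cells and thymic epithelium lay between 1.48 and 26.3 in every group. The listed markers of regulatory T cells summed to 60.0, 48.5, 132 and 71.2 FPKM, of which Ikzf2 made up 94.8 in WT DP2 while Foxp3, the defining factor, stayed between 0.19 and 0.69. The markers of the earlier CD4-CD8- stage summed to 236 FPKM in WT DP2 against 41.0 to 65.4 in the other groups, with Hhex alone at 221. The genotypes also differed in sex-linked transcripts at both stages: Xist was at 0.09, 208, 0.24 and 139 FPKM and the Y-linked Kdm5d at 20.0, 0.26, 34.6 and 0.32 in the same order of groups. A contribution of sex to the stage difference was not tested as a cause. Of 305 tested genes on the sex chromosomes 9 (2.95%) were called, against 2.08% of all tested genes.

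By the test of the stage difference, the Hdac3KO to WT ratio differed between the 2 stages for 211 genes. A gene was called when q, the p-value of its stage difference adjusted by Benjamini-Hochberg over all tested genes, was at most 0.05. With no library values no exact test could be made, and q rests on the spread that the authors' model assigned to each gene from 2 libraries a group. The Hdac3KO to WT ratio was higher in DP2 for 91 genes (0.897% of those tested) and lower in DP2 for 120 (1.18%). The 91 included 27 cytosolic ribosomal protein genes, 5 oxidative phosphorylation genes and the apoptosis regulators Bmf, Bad and Bcl2l1. Among the 120 were the survival gene Bcl2, the surface receptors Cd53, Cd84, Cd226, Cd302 and Ccr4, the transcription factors Tox2 and Lef1, and the mitotic genes Cenpe, Cenpf, Kif20b and Mki67. Within the called genes the difference ranged in size from 1.13 to 3.90 on the log2 scale. The median SE of the difference was 0.42 over all tested genes, and 80% of the SEs lay between 0.35 and 0.76, so differences under about 1 were not detectable with these tables. Before adjustment, 1198 positive and 692 negative differences had p under 0.05. With SEs multiplied by 1.5 none of the 211 calls held.

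**Figure D1:**
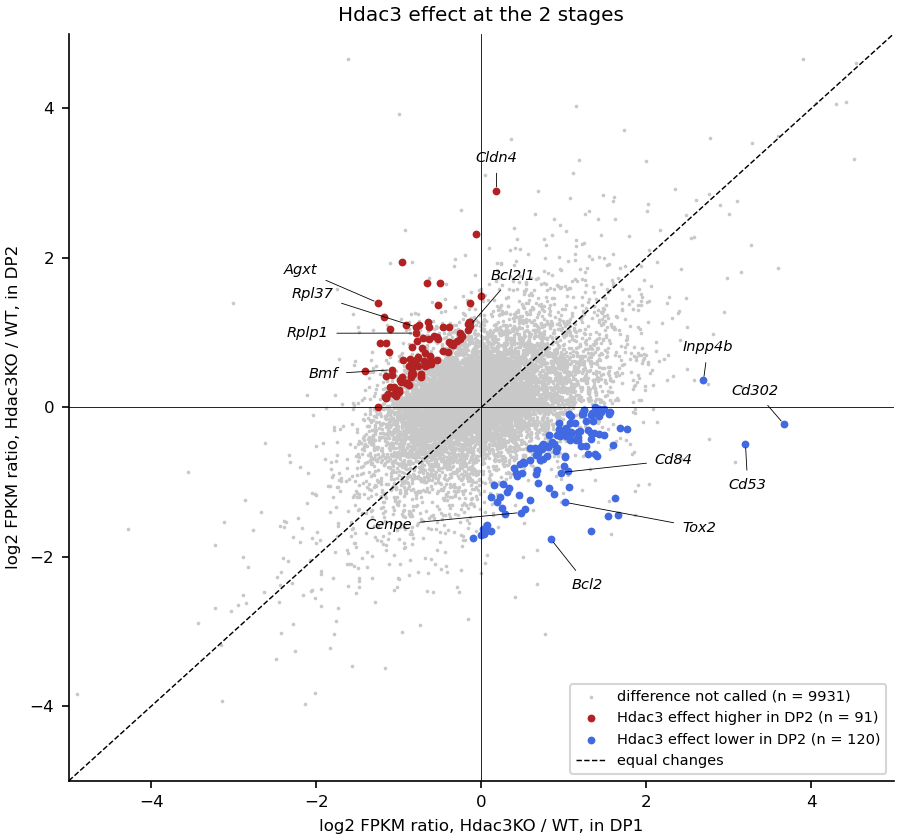
Log2 FPKM ratio of Hdac3KO over WT in DP1 (x axis) and in DP2 (y axis), one point per tested gene; 9 of the 10142 genes lie outside the axes. Red points (91 genes) lie above the dashed line of equal ratios and blue points (120 genes) below it; of the 211 genes, 9 were called in opposite directions at the 2 stages.

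Most of the 211 genes were called at one stage only by the authors' own test (deposited q at most 0.05). In DP1, the deposited tests called 10.8% of the tested genes higher and 12.9% lower in Hdac3KO, and in DP2 6.68% higher and 3.81% lower. Of the 91 genes with a positive difference, 47 were lower in DP1 and not called in DP2, 28 were higher in DP2 and not called in DP1, 5 were lower in DP1 and higher in DP2, and 11 were called at neither stage. The 120 genes with a negative difference comprised 78 that were higher in DP1 and not called in DP2, 30 that were lower in DP2 and not called in DP1, 4 that were higher in DP1 and lower in DP2, and 8 called at neither. A missing call at a stage does not show that the gene was unchanged there. The median log2 ratio of the 91 genes was -0.77 in DP1 and 0.73 in DP2, and that of the 120 genes 1.01 and -0.53. Both sets were chosen by this difference. Among the 470 genes called at both stages, 461 had the same direction at both. Across all tested genes the 2 log2 ratios had a Pearson correlation of 0.50 and a Spearman correlation of 0.40, which is a description across genes. The DP1 and DP2 comparisons share no library.

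The same contrast can be formed from the authors' stage comparisons, as the DP2 to DP1 change in Hdac3KO minus that in WT. These comparisons hold the same 8 libraries normalized in other pairs, so they check the tables and are not independent evidence. Here 206 positive (2.07%) and 106 negative differences (1.06%) passed of 9965 tested genes. Of the 211 genes, 162 passed in both forms, 78 positive and 84 negative. The median difference over all genes was 0.20 from the genotype comparisons and 0.30 from the stage comparisons, and the 2 forms differed by nearly the same amount for every gene (median -0.10, SD 0.027). Each pair of groups had been normalized separately. For a gene at the smallest deposited p-value, 5e-05, the SE of its stage change is an upper bound. A miss in the stage comparisons cannot decide for such a gene.

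The stage comparisons show where the 211 genes moved. In WT, 4.58% of genes were called higher and 17.5% lower in DP2 than in DP1, and in Hdac3KO 1.67% and 4.73%. For 84 of the 91 genes with a positive difference, the level fell from DP1 to DP2 in WT and did not pass the test in Hdac3KO. For 79 of the 120 with a negative difference, it rose in WT and did not pass in Hdac3KO. A further 20 of the 120 fell in Hdac3KO and did not pass in WT, and 6 rose in WT and fell in Hdac3KO. The median log2 change of the 91 genes was -1.37 in WT and 0.19 in Hdac3KO, and that of the 120 genes 1.05 and -0.40.

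**Figure D2:**
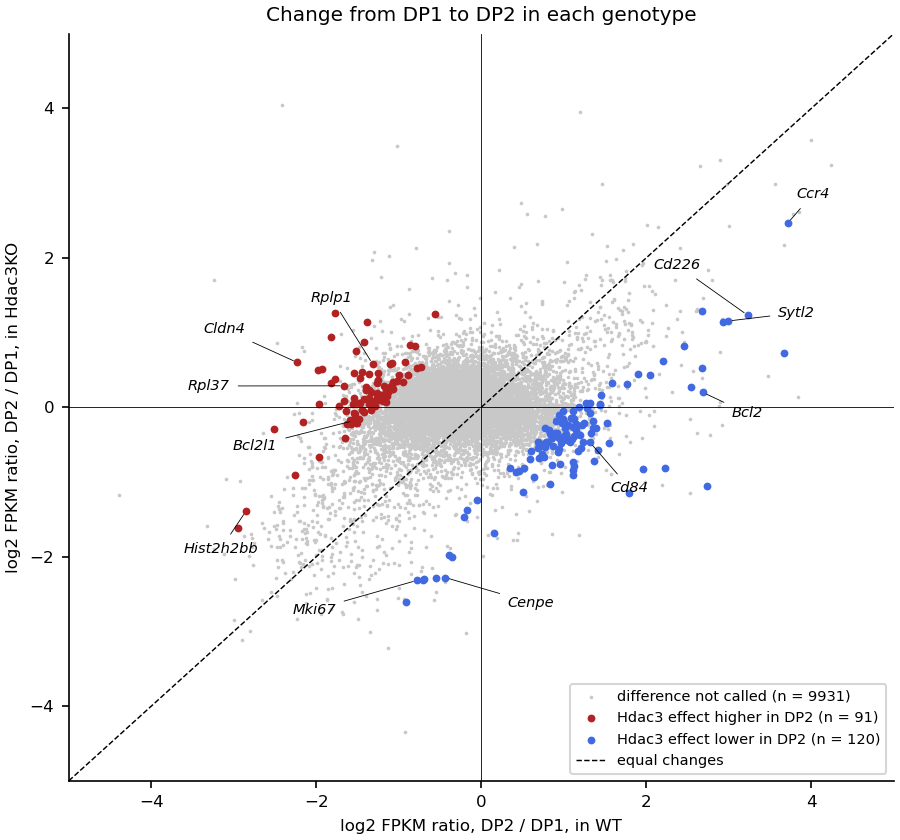
Log2 FPKM ratio of DP2 over DP1 in WT (x axis) and in Hdac3KO (y axis), one point per tested gene, with the genes called from the genotype comparisons in colour; 3 genes lie outside the axes. Most red genes lie at negative x and most blue genes at positive x, both near 0 on the Hdac3KO axis, while Cenpe and Mki67 lie low on the Hdac3KO axis.

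Transcript length moved with these values, and the main results that follow are given with and without its trend. When the 10001 tested genes with a known length were split into 5 equal groups by their longest annotated transcript, the median stage difference fell from 0.61 in the shortest group (up to 1881 bases) through 0.37, 0.21 and 0.07 to -0.19 in the longest (from 5131 bases). The median DP1 log2 ratio went from -0.48 in the shortest to 0.30 in the longest group, and the WT stage change from -0.65 to 0.01. The DP2 ratio lay between 0.10 and 0.12 in all 5 groups, and the Hdac3KO stage change between -0.07 and 0.06. The slope was therefore seen in both comparisons that contain WT DP1 and was near 0 in both that do not. Of the 209 called genes with a length, 57 positive and 6 negative calls fell in the shortest group, and 2 positive and 61 negative calls in the longest. The positive genes had a median transcript of 1561 bases and 54.1% GC and the negative genes 5231 bases and 41.4% GC, against 3274 bases and 49.6% GC over all tested genes. After the length trend was removed, 7 positive (0.07%) and 96 negative differences (0.96%) passed, which kept 3 of the 91 and 68 of the 120. Removal of this trend, or of the GC trend, also takes out the general offset of the differences. Subtracting that offset alone (0.25, the median gene of at least 10 FPKM in every group) left 33 positive and 365 negative calls. These kept 33 of the 91 and all 120. A positive call that ended with a trend removed may thus have ended through the offset. What gave rise to the slope was not tested.

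**Figure D3:**
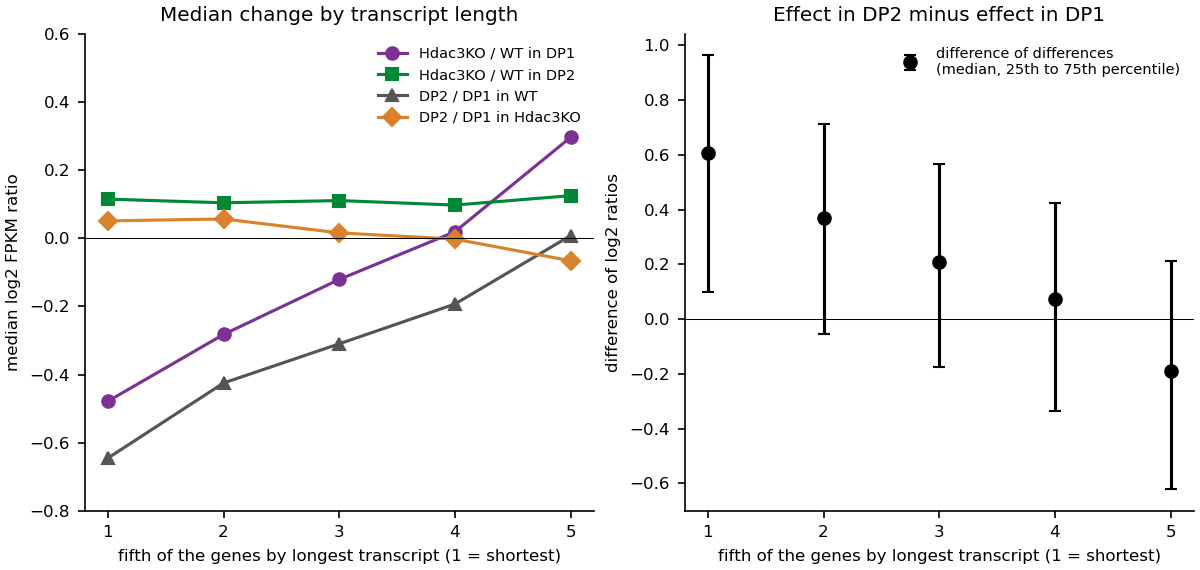
Left, median log2 FPKM ratio of each of the 4 comparisons in 5 equal groups of genes ordered by transcript length, shortest first; right, median stage difference in the same groups with bars from the 25th to the 75th percentile of genes. The comparisons that contain WT DP1 slope upward with length, the other 2 are flat, and the stage difference falls from 0.61 to -0.19.

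Cd84, a SLAM family receptor that binds itself on neighbouring lymphocytes, had opposite responses at the 2 stages. Its FPKM was 63.3 in WT DP1, 124 in Hdac3KO DP1, 182 in WT DP2 and 99.2 in Hdac3KO DP2. The Hdac3KO groups were thus 1.95-fold above WT in DP1 and 1.83-fold below WT in DP2, each called by the authors' test. The stage difference was -1.84 ± 0.35 (q = 0.0013), and it passed with the length trend removed (-2.06, q = 3.6e-05), with the GC trend removed (-1.47, q = 0.021) and in the stage comparisons. In WT the level rose 2.49-fold from DP1 to DP2, while in Hdac3KO the ratio was 0.72 and not called. The gene lies on chromosome 1 (mm10, 171839697 to 171890718, plus strand).

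Opposite calls at the 2 stages were made for 9 genes in all (0.0887% of those tested), and all 9 also passed the test of the stage difference. Besides Cd84, the genes higher in DP1 and lower in DP2 without Hdac3 were Dzip3, Trim24 and the unnamed locus Gm4759. Dzip3, an E3 ubiquitin ligase, was at 7.81, 12.5, 12.8 and 6.32 FPKM in WT then Hdac3KO of DP1 and WT then Hdac3KO of DP2, with a stage difference of -1.70 ± 0.41 (q = 0.013). Trim24, a bromodomain cofactor of nuclear receptors, was at 14.1, 24.5, 29.3 and 18.6 FPKM, with a stage difference of -1.45 ± 0.34 (q = 0.011). In the listed values WT DP1 was the lowest group for Cd84 and Trim24, and Hdac3KO DP2 was the lowest for Dzip3. The 5 genes lower in DP1 and higher in DP2 were the ribosomal protein genes Rpl37, Rplp1, Rpl19 and Rps14 and the GTPase gene Hras1. Hras1 was at 17.6, 10.3, 8.28 and 15.3 FPKM in the same order, with a stage difference of 1.67 ± 0.41 (q = 0.017). With the length trend removed, 4 of the 9 still passed, among them Cd84, Dzip3 and Trim24. The call of Dzip3 ended with the GC trend removed (-1.16, q = 0.15). No difference of the ribosomal genes or Hras1 passed with the length trend removed, Hras1 having 1.33 (q = 0.081). With the GC trend removed Rpl37 passed (1.33, q = 0.039) and Hras1 did not (1.10, q = 0.19).

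**Figure D4:**
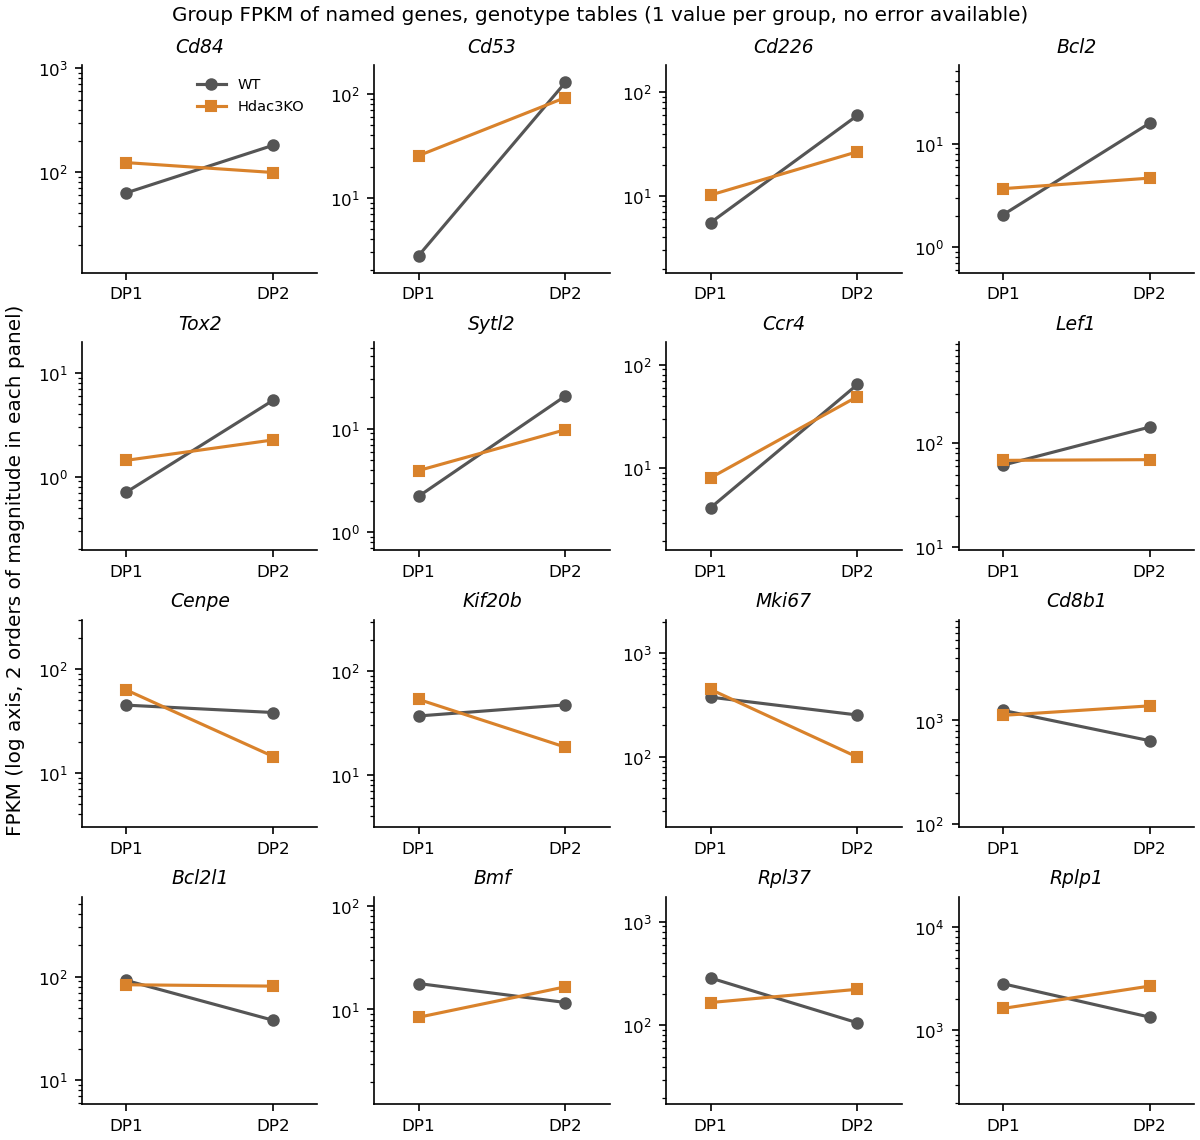
FPKM on a log axis in DP1 and DP2 for WT (circles) and Hdac3KO (squares) of 16 named genes; each point is the 1 deposited value of a group, with no error bar available, and the DP1 and DP2 pairs were normalized separately. In Cd84, Bcl2 and Rpl37 the order of the genotypes turns between DP1 and DP2, and in Lef1 and Bcl2l1 they lie close together in DP1 and apart in DP2.

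The 2 largest negative differences among the named genes, of Cd302 and Cd53, came with a low level in WT DP1. Cd53, a tetraspanin of the leukocyte surface, was at 2.77 FPKM in WT DP1, 25.5 in Hdac3KO DP1, 130 in WT DP2 and 92.6 in Hdac3KO DP2. Without Hdac3 it was 9.20-fold higher in DP1, while in DP2 the ratio was 0.71 and not called, a stage difference of -3.69 ± 0.83 (q = 0.0089). In the stage comparisons its difference was -3.65 with q = 0.10. The SE there was an upper bound, so this miss cannot decide. Cd302, a C-type lectin receptor, was at 0.60, 7.59, 4.71 and 4.03 FPKM, with a stage difference of -3.90 ± 1.18 (q = 0.049), so its size is poorly determined. Inpp4b, a phosphoinositide phosphatase, was at 6.05, 39.1, 40.9 and 52.5 FPKM, a stage difference of -2.33 ± 0.71 (q = 0.049). In each of these WT DP1 was the lowest of the 4 groups, and Hdac3KO DP1 lay closer to the DP2 groups. A low WT DP1 value itself favours a negative difference, by which these genes were chosen. With the length trend removed, Cd53 (-4.23, q = 0.00082) and Cd302 (-4.53, q = 0.022) passed, Cd302 not with the GC trend removed (-3.89, q = 0.079), and Inpp4b did not (-2.05, q = 0.14). Cd209c, a DC-SIGN family lectin, and the zinc finger gene Zfp182 followed the same course. Cd209c was at 7.48, 25.5, 23.2 and 19.0 FPKM (-2.06 ± 0.54, q = 0.024), and Zfp182 at 8.89, 23.5, 29.9 and 18.9 FPKM (-2.06 ± 0.45, q = 0.0088). Both passed with either trend removed. Zfp182 lies on the X chromosome, and the genotypes differed in sex-linked transcripts at both stages. A contribution of sex to its values was not tested.

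Other genes of this set rose strongly from DP1 to DP2 in WT and less or not detectably in Hdac3KO. Cd226, a costimulatory receptor, was at 5.55 FPKM in WT DP1, 10.2 in Hdac3KO DP1, 60.0 in WT DP2 and 26.8 in Hdac3KO DP2. Its level rose 9.37-fold with stage in WT and 2.35-fold in Hdac3KO, both called, and its stage difference was -2.05 ± 0.47 (q = 0.0089). Sytl2, a Rab27 effector in vesicle transport, was at 2.23, 3.95, 20.7 and 9.77 FPKM, a stage difference of -1.91 ± 0.48 (q = 0.019). Ccr4, a chemokine receptor that guides selected thymocytes toward the medulla, was at 4.17, 8.11, 64.4 and 49.3 FPKM, a stage difference of -1.35 ± 0.39 (q = 0.041). Each of these had its highest level in WT DP2 and its lowest in WT DP1, with Hdac3KO between them at both stages. All 3 passed with the length trend removed, while the call of Cd226 ended with the GC trend removed (-1.41, q = 0.13). None of them passed in the stage comparisons, where Cd226 had -2.0 (q = 0.15), Sytl2 -1.84 (q = 0.16) and Ccr4 -1.25 (q = 0.52). In all 3 the WT stage change was at the smallest deposited p-value, 5e-05. Its SE was therefore an upper bound, and these misses cannot decide.

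The BCL2 family controls permeability of the outer mitochondrial membrane, with Bcl2 and Bcl2l1 (Bcl-xL) as inhibitors of apoptosis and Bad and Bmf as BH3-only antagonists of them. Of 16 listed members tested, 3 had a higher Hdac3KO to WT ratio in DP2 and 1 a lower one (18.8% and 6.25%, against 0.897% and 1.18% of all tested genes). Bcl2 was at 2.05 FPKM in WT DP1, 3.68 in Hdac3KO DP1, 15.8 in WT DP2 and 4.65 in Hdac3KO DP2. It rose 6.43-fold with stage in WT, while the ratio in Hdac3KO was 1.15 and not called, and in DP2 it was 3.39-fold lower without Hdac3. The stage difference was -2.60 ± 0.59 (q = 0.0089), and it passed with either trend removed and in the stage comparisons (-2.49, q = 0.040). Bcl2l1 went the other way, at 91.8, 83.5, 37.9 and 81.0 FPKM. Its level fell 2.92-fold with stage in WT and was level in Hdac3KO (ratio 0.88, not called), a stage difference of 1.23 ± 0.37 (q = 0.046). Bcl2 is the form that mature T cells use and Bcl2l1 the form that CD4+CD8+ cells use. In WT the one rose and the other fell between DP1 and DP2, whereas neither passed the test in Hdac3KO.

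Bmf was at 17.8, 8.41, 11.7 and 16.5 FPKM in WT then Hdac3KO of DP1 and WT then Hdac3KO of DP2. From DP1 to DP2 it fell 1.82-fold in WT and rose 1.79-fold in Hdac3KO, both called, and the stage difference was 1.58 ± 0.36 (q = 0.0089). Bad was at 11.8, 6.26, 4.02 and 8.64 FPKM, a stage difference of 2.02 ± 0.59 (q = 0.040). Removal of the length trend ended the calls of Bcl2l1 (0.85, q = 0.29) and Bad (1.43, q = 0.25) and kept that of Bmf (1.54, q = 0.0074). Relative to the median gene alone, Bcl2l1 (q = 0.11) and Bad (q = 0.057) also lost their calls and Bmf kept its own (q = 0.015). The call of Bmf ended with the GC trend removed (1.05, q = 0.14). Mcl1, another inhibitor of apoptosis, was at 74.8, 158, 79.0 and 155 FPKM, with a stage difference of -0.11 ± 0.36 (q = 0.90).

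Genes that T cell receptor signalling induces during selection had mostly negative stage differences. Of the 28 listed and tested, 2 passed with a negative difference (Cd53 and Tox2) and none with a positive one, 7.14% against 1.18% of all tested genes. In the stage comparisons no gene of the list passed of 26 tested, Tox2 and Cd53 both having q = 0.10. The WT stage change of both was at the smallest deposited p-value, so its SE was an upper bound and these misses cannot decide. The list median was -0.78 relative to the median gene of at least 10 FPKM and -0.59 with the length trend removed, against -0.05 and -0.03 over all tested genes on these scales, and 23 of the 28 lay below that median gene. Tox2, an HMG-box transcription factor, was at 0.71, 1.44, 5.46 and 2.26 FPKM, a stage difference of -2.29 ± 0.69 (q = 0.048). It rose 6.40-fold with stage in WT, with a ratio of 1.43 in Hdac3KO that was not called. Its relative Tox, which is required for CD4 lineage development, was at 17.9, 16.8, 84.3 and 33.8 FPKM, a stage difference of -1.23 ± 0.41 (q = 0.076). Cd69, an early activation marker, was at 9.82, 17.0, 156 and 113 FPKM, with -1.26 ± 0.44 (q = 0.090). Centring on the median gene brought the calls in this list to 5, all negative. Other induced genes were lower without Hdac3 at both stages by the authors' test, and their stage differences did not pass. Nr4a1, a reporter of receptor signal strength, was at 6.63, 3.57, 63.1 and 31.3 FPKM (-0.12 ± 0.39, q = 0.90), and Egr1 at 12.5, 4.41, 60.2 and 26.3 FPKM (0.31 ± 0.47, q = 0.78). Itm2a, a membrane protein of selected thymocytes, was at 19.5, 6.35, 360 and 84.0 FPKM (-0.48 ± 0.65, q = 0.74). Cd5, which was called at neither stage, had a stage difference of -0.14 ± 0.35 (q = 0.87).

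Some genes that mark the step to the mature T cell could not be tested, because the authors' software had not tested them in DP1. Il7r, the receptor chain for the survival cytokine interleukin 7, was at 0.22, 0.13, 10.2 and 0.65 FPKM in WT then Hdac3KO of DP1 and WT then Hdac3KO of DP2. Nr4a3, an orphan nuclear receptor induced by receptor signalling, was at 0.49, 0.37, 21.3 and 4.66 FPKM. Cd40lg, the CD40 ligand, was listed at 0 in WT DP1 and was at 0.46, 24.7 and 3.60 FPKM in the other groups. The 3 genes were thus near the floor at DP1 in both genotypes and highest in WT DP2. They do not stand for maturation genes as a set. Of 19 listed and tested post-selection maturation genes, 11 were called higher and 2 lower without Hdac3 in DP2. Over all tested genes the shares were 6.68% and 3.81%. FPKM summed over that list was 893, 1256, 1350 and 2362 in the same order of groups. In the test of the stage difference 1 of the 19 passed, with a negative difference (5.26% against 1.18% of all tested genes).

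Of 29 genes typical of the CD4+CD8+ stage, 2 had a higher and 1 a lower ratio in DP2 (6.90% and 3.45%, against 0.897% and 1.18% of all tested genes). Cd8b1, the beta chain of the CD8 coreceptor, was at 1253, 1121, 639 and 1383 FPKM in WT then Hdac3KO of DP1 and WT then Hdac3KO of DP2, a stage difference of 1.28 ± 0.39 (q = 0.049). It fell 2.33-fold with stage in WT, with a ratio of 1.12 in Hdac3KO that was not called, and Bcl2l1, described above, was the other gene. Lef1, an HMG-box factor of the Wnt pathway that acts with Tcf7 in thymocytes, was at 61.7, 68.7, 144 and 69.8 FPKM, a stage difference of -1.20 ± 0.35 (q = 0.043). WT DP2 alone was high for Lef1 and low for Cd8b1, while the other 3 groups were similar. The call of Lef1 held with the length trend removed (-1.38, q = 0.019), and that of Cd8b1 did not (0.67, q = 0.50). Cd8b1 did not pass relative to the median gene alone either (q = 0.11). Lef1 missed the threshold with the GC trend removed (-1.26, q = 0.052) and in the stage comparisons (-1.05, q = 0.069). The recombinase gene Rag1 was at 1199, 2655, 671 and 3006 FPKM, and its difference of 1.01 ± 1.48 (q = 0.76) had an SE too wide to place it.

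Most genes of mitosis were called lower in DP2 than in DP1 in both genotypes, 30 of 36 listed genes in WT and 33 in Hdac3KO. Over all tested genes the shares were 17.5% and 4.73%. For some genes of mitosis the fall was called in Hdac3KO only. Among these G2 and mitosis genes, Cenpe, Cenpf and Mki67 passed with a negative stage difference and none with a positive one (8.33% against 1.18% of all tested genes), and the list median was -0.52 relative to the median gene and -0.56 with the length trend removed. Cenpe, a kinetochore motor protein, was at 44.9 FPKM in WT DP1, 62.8 in Hdac3KO DP1, 38.2 in WT DP2 and 14.4 in Hdac3KO DP2, a stage difference of -1.89 ± 0.43 (q = 0.0089). Kif20b, a kinesin of cytokinesis outside this list, was at 37.0, 53.5, 47.4 and 18.5 FPKM, a stage difference of -1.89 ± 0.42 (q = 0.0089). For Mki67, the proliferation marker, the values were 374, 444, 251 and 98.7 FPKM, and the stage difference was -1.60 ± 0.45 (q = 0.037). In each of these the Hdac3KO DP2 group was the lowest of the 4, and the genotype difference in DP1 was not called by the authors' test. Between DP1 and DP2 Cenpe fell 4.85-fold in Hdac3KO, with a ratio of 0.74 in WT that was not called. Other cell cycle genes had stage differences near 0. Ccnb1, cyclin B1, was at 124, 55.0, 47.7 and 21.6 FPKM (0.03 ± 0.43, q = 0.98), and Cdk1, its kinase partner, at 50.3, 24.6, 15.3 and 7.21 FPKM (-0.06 ± 0.43, q = 0.96). Length bears on these calls: Cenpe and Kif20b passed with its trend removed (Kif20b not quite with the GC trend removed, q = 0.0501), while Cenpf (-1.20, q = 0.10) and Mki67 (-1.20, q = 0.18) did not. In the stage comparisons Kif20b passed and the other 3 did not. The Hdac3KO stage changes of these 3 were at the smallest deposited p-value, so their misses cannot decide.

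The S phase and replication list, with 41 genes tested, had 1 call (2.44% against 0.897% of all tested genes). This was Ung, the uracil DNA glycosylase, at 8.14, 3.47, 1.72 and 3.11 FPKM (2.09 ± 0.59, q = 0.037, or 0.10 with the length trend removed and 0.056 in the stage comparisons). The replication-dependent histone genes, whose transcripts are short and peak in S phase, had 3 positive calls of 53 tested (Hist2h2bb, Hist1h3f and Hist1h4d; 5.66% against 0.897% of all tested genes). Their list median of 0.48 relative to the median gene was -0.01 with the length trend removed, and none of the 3 calls held then or in the stage comparisons (q = 0.25, 0.19 and 0.33). The WT stage changes of all 3 were at the smallest deposited p-value, so the misses in the stage comparisons cannot decide. Relative to the median gene alone Hist2h2bb passed (q = 0.043), while Hist1h3f (q = 0.085) and Hist1h4d (q = 0.10) did not. Hist2h2bb was at 3832, 1974, 624 and 829 FPKM, falling 7.22-fold with stage in WT and 2.62-fold in Hdac3KO.

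Ribosomal protein genes made up the largest group among the positive differences. Of 81 tested cytosolic ribosomal protein genes, 27 (33.3%, against 0.897% of all tested genes) had a higher Hdac3KO to WT ratio in DP2, none a lower one, and all 81 differences were above 0, ranging from 0.50 to 3.29. Over all tested genes 61.6% of the differences were above 0, and the shortest length group had a median of 0.61. The median gene of the list was at a log2 ratio of -0.84 in DP1 and 0.27 in DP2, and changed by -1.24 with stage in WT and -0.06 in Hdac3KO. Summed over the list, FPKM was 66432 in WT DP1, 36515 in Hdac3KO DP1, 33601 in WT DP2 and 39464 in Hdac3KO DP2, so WT DP1 stood above the other 3 groups. Rpl37, of the large subunit, was at 286, 166, 106 and 222 FPKM, a stage difference of 1.86 ± 0.36 (q = 0.0013). Rplp1, an acidic stalk protein, was at 2814, 1624, 1340 and 2667 FPKM, with 1.79 ± 0.36 (q = 0.0017). Both genes were called lower in DP1 and higher in DP2. None of the 27 calls held with the length trend removed, and 12 held relative to the median gene alone. The list median was 0.84 relative to the median gene of at least 10 FPKM and 0.39 with the length trend removed. Over all tested genes the medians on these scales were -0.05 and -0.03. Ribosomal protein transcripts had a median length of 1094 bases. Reads of ribosomal protein genes can also be shared with their many processed pseudogenes, and how the counting treated them is not given in the sources used here.

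Other lists of housekeeping transcripts also had positive medians, with fewer calls. Oxidative phosphorylation genes had 5 positive calls of 75 tested (6.67% against 0.897% of all tested genes), among them Ndufa4, Ndufv1, Cox4i1 and Cox6c, with a list median of 0.64 that was 0.29 with the length trend removed. Cox4i1, a subunit of cytochrome oxidase, was at 278, 134, 129 and 155 FPKM, a stage difference of 1.32 ± 0.36 (q = 0.030), so here too WT DP1 was high and the other 3 groups were alike. Mitochondrial ribosomal protein genes had 1 call of 76 (Mrpl40; 1.32%, near the share of all tested genes), and proteasome subunit genes none of 36 (14 positive at an unadjusted p-value under 0.05). Of all 10142 tested genes, 1198 were positive at that unadjusted threshold. The 20 listed housekeeping genes, taken as a reference, had no call (7 positive at an unadjusted p-value under 0.05). Their median was 0.35 relative to the median gene, with all 20 differences above 0 before centring, against 61.6% of all tested genes. No call of these lists held with the length trend removed. Relative to the median gene alone, 1 of the 5 oxidative phosphorylation calls held, and that of Mrpl40 did not (q = 0.094).

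**Figure D5:**
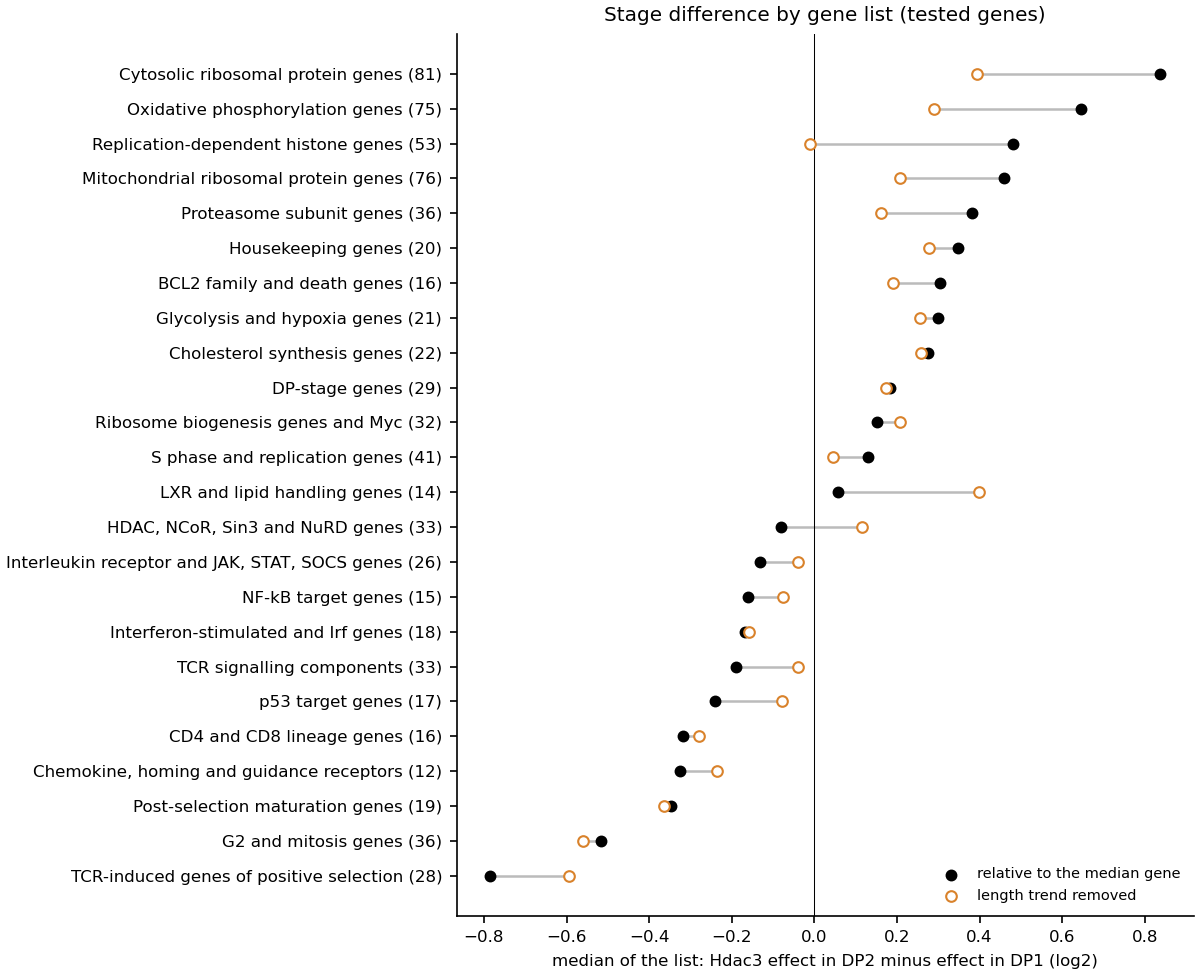
Median stage difference of each of the 24 gene lists, relative to the median gene of at least 10 FPKM (filled) and with the length trend removed (open), with the number of tested genes in brackets. Ribosomal protein genes are highest at 0.84 and drop to 0.39 on removal of the trend, the histone list drops to about 0, and TCR-induced and mitosis genes lie lowest on both scales.

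Cldn4 had the largest positive difference of the named genes. Cldn4, a tight junction protein, was at 10.1, 11.5, 2.58 and 19.2 FPKM in WT then Hdac3KO of DP1 and WT then Hdac3KO of DP2, a stage difference of 2.71 ± 0.77 (q = 0.038). WT DP2 was the lowest of the 4 groups and Hdac3KO DP2 the highest. Epcam, an epithelial adhesion molecule and one of the listed markers of thymic epithelium, was at 2.58, 1.14, 1.19 and 2.76 FPKM, with 2.39 ± 0.71 (q = 0.044). Summed thymic epithelium markers were at 20.5, 23.1, 23.4 and 26.3 FPKM in the same order, and a part of epithelial RNA in these results was not tested. Agxt, Ift27, Timm13, Galk1, Pmm1, Shfm1 and Cltb had differences from 1.64 to 2.65, and no call among these held with the length trend removed. Shfm1 was nearest to it, at 1.46. Of the 91 genes, 3 kept their call then: Bmf, Cntnap3 and Dnajc15, which were singled out after their values were seen. Cntnap3, a neurexin family membrane protein, was at 6.22, 3.68, 2.64 and 5.65 FPKM (1.86 ± 0.54, q = 0.040). Dnajc15, a mitochondrial J-domain protein, was at 443, 248, 227 and 334 FPKM (1.40 ± 0.36, q = 0.020).

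Dnajc15 and 11 of the 120 genes with a negative difference also passed with the GC trend removed, relative to the median gene and in the stage comparisons. Besides Bcl2, Cd84, Cd209c, Trim24 and Zfp182, these 11 included Ivns1abp, Ppm1e, Ube2q2 and 2 unnamed loci. With SEs taken from the authors' test statistic, Cd84, Cd209c and Zfp182 passed, while Bcl2 (q = 0.12) and Trim24 (q = 0.50) did not. Ivns1abp, an actin-binding Kelch protein, was at 54.3, 102, 103 and 70.5 FPKM (-1.45 ± 0.34, q = 0.0099). In each of these 11 the listed WT DP1 value was the lowest of the 4 groups. The 11 were chosen for a negative difference, which a low WT DP1 value itself favours. The DP1 and DP2 values were normalized separately, so small gaps between them, as in Ube2q2 (8.29 in WT DP1 and 9.29 in Hdac3KO DP2), do not settle this order.

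Zinc finger genes named Zfp, a set chosen after the values were seen, had 10 negative calls and no positive one of 255 tested (3.92% against 1.18% of all tested genes), and the same numbers of calls with the length trend removed. Their median was -0.33 relative to the median gene and -0.26 with the length trend removed. The calls ranged from Zfp930 (6.87, 14.3, 20.2 and 9.69 FPKM, -2.12 ± 0.62, q = 0.042) to Zfp407 at -1.20. Zfp930 lost its call with the GC trend removed (-1.68, q = 0.19). Many of these genes are KRAB zinc finger repressors that occur in clusters of similar copies, so reads may be split between relatives.

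Other lists had few calls. Jak2, a cytokine receptor kinase, was the single call of 26 interleukin receptor and JAK, STAT and SOCS genes, at 15.2, 22.8, 35.4 and 24.2 FPKM (-1.13 ± 0.34, q = 0.049). That is 3.85% of the list against 1.18% of all tested genes, and Jak2 did not pass once length (q = 0.081) or GC content (q = 0.099) was accounted for, nor in the stage comparisons (q = 0.069). A further 10 lists with 221 tested entries had no call: T cell receptor signalling components, HDAC and corepressor genes, CD4 and CD8 lineage genes, ribosome biogenesis, cholesterol synthesis, glycolysis and hypoxia, lipid handling, p53 targets, NF-kB targets and interferon-stimulated genes. Their medians lay between -0.32 and 0.30 relative to the median gene. An unadjusted p-value under 0.05 was found for 34 positive and 11 negative differences, against 1198 and 692 of all 10142 tested genes. With so wide an SE this does not show that Hdac3 acted alike on them at the 2 stages.

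Promoters of 3 genes are shown because they stand for 3 of the patterns above: crossing receptor (Cd84), lower mitotic gene in DP2 (Kif20b) and crossing ribosomal protein gene (Rpl37). The sequences are from RefSeq (GRCm38.p6), from 250 bases before to 30 after the annotated start, 5′ to 3′ along the gene, with a match to one searched motif in capitals. In Cd84 the marked match is TGANTCA, the AP-1 motif. In Kif20b it is 2 adjacent copies of TTTGAA, the core of the cell cycle element CHR, and in Rpl37 it is CCAAT, the NF-Y box. The 3 windows also hold matches to other searched motifs, which are not marked.
Cd84 (chr1:171839447-171839726, plus strand): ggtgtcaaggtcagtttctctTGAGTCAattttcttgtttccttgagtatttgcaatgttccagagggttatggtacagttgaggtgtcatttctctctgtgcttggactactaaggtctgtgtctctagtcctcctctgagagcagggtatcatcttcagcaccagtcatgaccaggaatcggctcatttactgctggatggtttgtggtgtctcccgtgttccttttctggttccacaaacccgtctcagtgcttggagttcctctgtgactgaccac
Kif20b (chr19:34922108-34922387, plus strand): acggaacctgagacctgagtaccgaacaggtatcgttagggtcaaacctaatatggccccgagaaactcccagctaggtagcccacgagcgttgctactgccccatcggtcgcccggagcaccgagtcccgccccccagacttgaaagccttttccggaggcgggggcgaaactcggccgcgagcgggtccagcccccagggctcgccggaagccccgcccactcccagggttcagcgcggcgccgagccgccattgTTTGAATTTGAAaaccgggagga
Rpl37 (chr15:5116363-5116642, plus strand): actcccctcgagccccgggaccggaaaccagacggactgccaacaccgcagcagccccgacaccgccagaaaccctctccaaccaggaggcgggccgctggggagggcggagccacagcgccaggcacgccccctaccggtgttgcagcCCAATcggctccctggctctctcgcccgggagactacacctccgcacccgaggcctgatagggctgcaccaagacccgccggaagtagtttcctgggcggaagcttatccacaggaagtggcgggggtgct
Windows of this length, searched on both strands, were matched for 7392 of the 10142 tested genes, 65 of them with a positive and 88 with a negative stage difference. TGANTCA was found in 7.69% of the positive, 6.82% of the negative and 4.03% of all 7392 promoters. For TTTGAA the shares were 7.69%, 12.5% and 11.5%, and for CCAAT 24.6%, 33.0% and 39.5%. The other searched motifs had 32.3%, 25% and 36.3% (CGGAAG), 9.23%, 10.2% and 10.6% (AGGTCA), and 10.8%, 7.95% and 11.3% (TGTGGT). Such a match is a description of letters in the window and shows no binding.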

How the data were processed

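RNA-seq of 8 libraries (2 in each of 4 groups) was processed by the submitters with Trimmomatic 0.32, TopHat2 2.0.11 and Cuffdiff 2.1.1 on mm10, per the submitters' processing notes. The 4 deposited tables compare 2 groups each, and give per gene the authors' FPKM of each group, a test score (test statistic), a p-value and a q-value, with FPKM normalized within a table only. The smallest deposited p-value was 5e-05, and SEs of genes at it are upper bounds. Single-library values were not analysed here, so replicates could not be compared.

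An SE was computed for each log2 FPKM ratio from the deposited p-value, by dividing the size of the ratio by the matching two-sided normal quantile. The stage difference was divided by the root of the summed squared SEs of both comparisons, tested against the normal distribution (two-sided), and adjusted by Benjamini-Hochberg over all tested genes (threshold 0.05). Genes needed 1 FPKM in a group of each table, with no pseudocount. The scripts were tested on simulated data. Lowess trends (fraction 0.3) on log2 longest transcript length or GC content (GENCODE M21) were removed as alternatives. Genes were named by rule: of those called, at 5 FPKM or more and of the same sign in the stage comparisons, the 15 largest in each direction; those of 5 FPKM or more with opposite calls at the 2 stages; and, with no FPKM minimum of their own, up to 4 called members of each list, leaving out unnamed loci and small RNAs. Members and lists were chosen with earlier results of these data known. Python 3.11.15, pandas 2.3.3, numpy 2.4.6, scipy 1.17.1, statsmodels 0.14.6 and matplotlib 3.10.9 were used.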

Additional observations from a re-analysis of the deposited data

Results flagged for a closer look

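For 39 of the named genes the change without Hdac3 differed between DP1 and DP2 by the test of the difference itself in both forms of the contrast, from the genotype comparisons and from the stage comparisons. All genes named by rule except Hdac3 had already passed in the genotype comparisons, and both forms rest on the same 8 libraries. A pass in both is therefore not independent evidence. The values here are those of the stage comparisons, the log2 change from DP1 to DP2 in Hdac3KO minus that in WT.

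Negative differences were found in Cd302 (-3.79), Spata1 (-2.93), Bcl2 (-2.49), Inpp4b (-2.27), Zfp930 (-2.09), Zfp182 (-2.02), Cd209c (-1.99), Ppp2r3a (-1.91), Nsun6 (-1.84), Kif20b (-1.84), Cd84 (-1.79), Dzip3 (-1.64) and Trim24 (-1.31). Positive differences of ribosomal protein and respiratory chain genes were found in Rpl37 (1.95), Rplp1 (1.89), Ndufa4 (1.87), Rpl19 (1.55), Rps14 (1.52), Rps6 (1.59), Rpl36a (1.60), Ndufv1 (1.55), Cox4i1 (1.43), Cox6c (1.33) and Mrpl40 (1.45). The other positive differences were those of the apoptosis and coreceptor genes Bad (2.15), Bmf (1.70), Bcl2l1 (1.37) and Cd8b1 (1.38), and of Cldn4 (2.83), Agxt (2.76), Ift27 (2.44), Timm13 (2.27), Shfm1 (2.004), Galk1 (2.01), Pmm1 (1.97), Cntnap3 (1.92), Hras1 (1.80), Cltb (1.75) and Epcam (2.53). Of these genes with positive values, Bmf and Cntnap3 also passed in the genotype comparisons with the length trend removed. Of those with negative values, Bcl2, Zfp182, Cd209c, Cd84 and Trim24 passed there with either trend removed. Cd302, Spata1, Zfp930, Nsun6, Kif20b and Dzip3 passed with the length trend removed and not with the GC trend removed. Inpp4b and Ppp2r3a passed with neither.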

How the results depend on the processing

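No paired analysis was possible because the deposited tables give 1 value per group, and for the same reason no library could be left out in turn. The counts as reported were 91 positive and 120 negative differences from the genotype comparisons, 206 and 106 from the stage comparisons, and 9 genes called in opposite directions. In that order, a q of at most 0.01 gave 4, 14, 5, 3 and 1, and a q of at most 0.10 gave 320, 261, 554, 217 and 25. Relative to the median gene, which lay at 0.25 in the genotype and 0.34 in the stage comparisons, the counts were 33, 365, 23, 383 and 18, so the split of positive against negative calls turns on the centring. SEs multiplied by 1.5 left 0 in each of the 4 tests (215, 198, 329 and 144 at an unadjusted p under 0.05). SEs from the deposited statistic gave 134, 399, 151 and 277, which kept only 40 of the 91 and 96 of the 120 reported calls. SEs at least those of genes of like level gave 33, 46, 57 and 39. With the length trend removed the counts were 7, 96, 12 and 106, with the GC trend removed 14, 53, 13 and 43, and with both removed, an alternative added after seeing the data, 15, 44, 14 and 44. The cause of these shifts was not tested. An FPKM minimum of 5 or none, a pseudocount of 1, a minimum difference of 1 and leaving out the sex chromosomes (also added after seeing the data) kept each count within 1.5 times. No result reversed its sign. Of 54 named genes, 21 stayed on their side of the threshold with the length trend removed, 17 with the GC trend removed, 41 relative to the median gene and 40 in the stage comparisons. With SEs from the deposited statistic 31 stayed and 23 lost their call. Among those lost were Bcl2 (q = 0.12), Bmf (q = 0.15), Trim24 (q = 0.50), Bcl2l1 (q = 0.52), Tox2 (q = 0.63) and Lef1 (q = 0.65). With SEs at least those of genes of like level, 31 stayed.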
